A study of Mus musculus with 57 samples.

Results

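Expression of 10 enzymes that desaturate, elongate, activate and re-esterify fatty acids was followed in single mouse embryos of 3 lines that carried a mutation in Taf5, Taf12 or Taf13. They were the desaturases Fads1, Fads2, Fads3, Scd1 and Scd2, the elongases Elovl5 and Elovl6, the acyl-CoA synthetases Acsl1 and Acsl4, and the lysophospholipid acyltransferase Lpcat3. Each was taken by its symbol from the deposited table of 56557 genes, and all 10 were found. They were chosen on the measured levels of Fads2, Lpcat3 and Acsl1 in Taf12 mutants, taken to be lower there, so values of the enzymes in Taf12 mutants are given below as a description, with no test. The labels give genotypes as MUT, HET and WT and do not describe the alleles, the strain, the litters or any further treatment. Taf12 embryos were blastocysts at embryonic day 3.5 (E3.5; MUT n = 3, HET n = 5, WT n = 5) or outgrowths (OG; MUT n = 4, HET n = 3, WT n = 4), which are E3.5 blastocysts cultured singly for 72 h in medium with 10% fetal bovine serum. Taf13 embryos were blastocysts at E3.5 (MUT n = 3, HET n = 4, WT n = 4) or whole embryos at E6.5 (MUT n = 2, HET n = 9, WT n = 4). Taf5 embryos were blastocysts at E3.5 (MUT n = 4, WT n = 3). Each of the 57 libraries came from 1 embryo, and p-values measure the spread between these embryos.

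Polyunsaturated fatty acids are built from dietary precursors by alternating desaturation and elongation. Fads2 carries out the entry step and Fads1 a later one, while Elovl5 lengthens the intermediates between them. Scd1 and Scd2 place the first double bond into saturated chains that Elovl6 has extended, and Fads3 acts on sphingoid bases. Acsl1 and Acsl4 couple fatty acids to coenzyme A, Acsl4 with a preference for arachidonate, and Lpcat3 inserts polyunsaturated acyl chains into lysophosphatidylcholine of the endoplasmic reticulum. Many of these genes are known in liver as targets of the sterol regulatory element binding proteins (SREBPs) and of the liver X receptors (LXRs). TFIID, which binds core promoters, contains the products of Taf5, Taf12 and Taf13, and the Taf12 protein is also part of the coactivator SAGA.

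The sequences before the annotated start of the 3 genes that gave the set its reason are shown because TFIID acts at core promoters. They are RefSeq sequences of the mouse build GRCm38.p6, which is not the build GRCm39 named for these data, and each covers the 250 bases before the start, 5′ to 3′ on the strand of the gene. Fads2 lies at chr19:10101504-10101753 on the minus strand. Lpcat3 lies at chr6:124662854-124663103 on the plus strand. Acsl1 has an upstream start at chr8:46470787-46471036 and a downstream start at chr8:46490716-46490965, both on the plus strand. Capitals mark the GC box, spelled GGGCGG, on either strand. They also mark CCAAT boxes, named for the letters searched, and the sterol response element, searched as TCACNCCAC, again on either strand.
Fads2: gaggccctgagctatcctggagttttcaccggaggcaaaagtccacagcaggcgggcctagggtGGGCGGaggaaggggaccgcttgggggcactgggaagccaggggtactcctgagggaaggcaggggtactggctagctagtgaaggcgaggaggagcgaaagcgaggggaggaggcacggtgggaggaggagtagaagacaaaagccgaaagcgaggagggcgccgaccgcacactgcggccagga
Lpcat3: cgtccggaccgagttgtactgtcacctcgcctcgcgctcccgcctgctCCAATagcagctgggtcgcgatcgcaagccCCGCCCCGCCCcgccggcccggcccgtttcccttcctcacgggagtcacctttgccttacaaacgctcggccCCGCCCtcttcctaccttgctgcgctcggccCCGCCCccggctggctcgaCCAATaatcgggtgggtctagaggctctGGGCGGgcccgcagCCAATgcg
Acsl1 upstream start: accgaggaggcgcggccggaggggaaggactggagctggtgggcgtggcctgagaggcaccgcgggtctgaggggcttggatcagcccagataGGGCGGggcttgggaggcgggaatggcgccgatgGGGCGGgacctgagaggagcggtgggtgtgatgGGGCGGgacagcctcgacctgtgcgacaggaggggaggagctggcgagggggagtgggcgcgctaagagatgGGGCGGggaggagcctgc
Acsl1 downstream start: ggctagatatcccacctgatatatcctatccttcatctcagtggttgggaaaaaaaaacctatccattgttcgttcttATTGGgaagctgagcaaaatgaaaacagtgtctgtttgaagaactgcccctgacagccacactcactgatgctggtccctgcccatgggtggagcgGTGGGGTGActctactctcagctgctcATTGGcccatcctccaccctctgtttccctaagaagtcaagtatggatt
A TATA box core (TATAAA) was in none of these 4 windows and in none of the 8 windows found for 7 of the 10 genes, against 12.4% of all 32851 windows of the same length. Fads2 held 1 GC box and no CCAAT box. Lpcat3 held 5 GC boxes, of which a pair overlapped, and 3 CCAAT boxes. The upstream Acsl1 window held 4 GC boxes. The downstream Acsl1 window held 2 CCAAT boxes and the only sterol response element among the 8 windows. Over all windows, 32.7% held a GC box, 33.8% a CCAAT box and 1.05% the sterol response element. These matches describe the letters only. Fads3, Fads2 and Fads1 are neighbours on chromosome 19, where Scd2 and Scd1 also lie beside their relatives Scd3 and Scd4.

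The genes differed in how steadily they were detected. Values are FPKM from the deposited table, which scale the reads of a gene by a length and by the depth of the library, and read numbers were recovered from them. Total depth was 7.81 to 12.07 M reads in E3.5 libraries, 4.57 to 12.56 M in outgrowths and 18.39 to 21.53 M at E6.5. Scd1, Scd2, Elovl5, Elovl6, Acsl4 and Lpcat3 had reads in all 57 libraries. Fads2 had no read in 23 of 31 E3.5 libraries, in 2 of 11 outgrowths and in 0 of 15 E6.5 embryos. Fads1 had none in 12 E3.5 libraries and 1 outgrowth, and Fads3 none in 21 E3.5 libraries and 2 E6.5 embryos. Each read of Fads2 was worth 2.11 to 5.93 FPKM in outgrowths, so large FPKM of this gene rest on few reads, and 0 reads allow up to 3 reads per library by counting error alone. The lengths that the FPKM imply are far from the annotated ones for some genes: 37.1 bases for Fads2 and 20320 for Elovl6, whose longest coding transcripts in GENCODE vM21 have 3150 and 5951 bases. In the libraries with reads of Fads2 a single read thus exceeds the limit of FPKM 1 used for testing, while the 1 added before taking logs compresses differences of Elovl6. For this reason no level of a gene is set against that of another gene.

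Levels also differed by stage, although each line and stage was normalized separately and these levels were not tested against each other. Fads2 ran from 674 to 1697 FPKM in the 4 WT embryos at E6.5, from 283 to 739.6 in WT outgrowths, and from 0 to 277 in Taf12 WT and 0 to 268 in Taf13 WT blastocysts, and no Taf5 library had a read. Fads1 ran from 142 to 231 FPKM in WT at E6.5 and from 191 to 239 in WT outgrowths, against 0 to 175 in WT blastocysts of the 3 lines. Elovl6 was instead highest in blastocysts: it was at 11.5 to 17.6 FPKM in WT blastocysts, 0.195 to 1.32 in WT outgrowths and 1.08 to 1.43 in WT embryos at E6.5. Lpcat3 was at 84.6 to 174 FPKM in WT blastocysts, 25.4 to 49.0 in WT outgrowths and 21.3 to 61.04 in WT at E6.5.

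**Figure D1:**
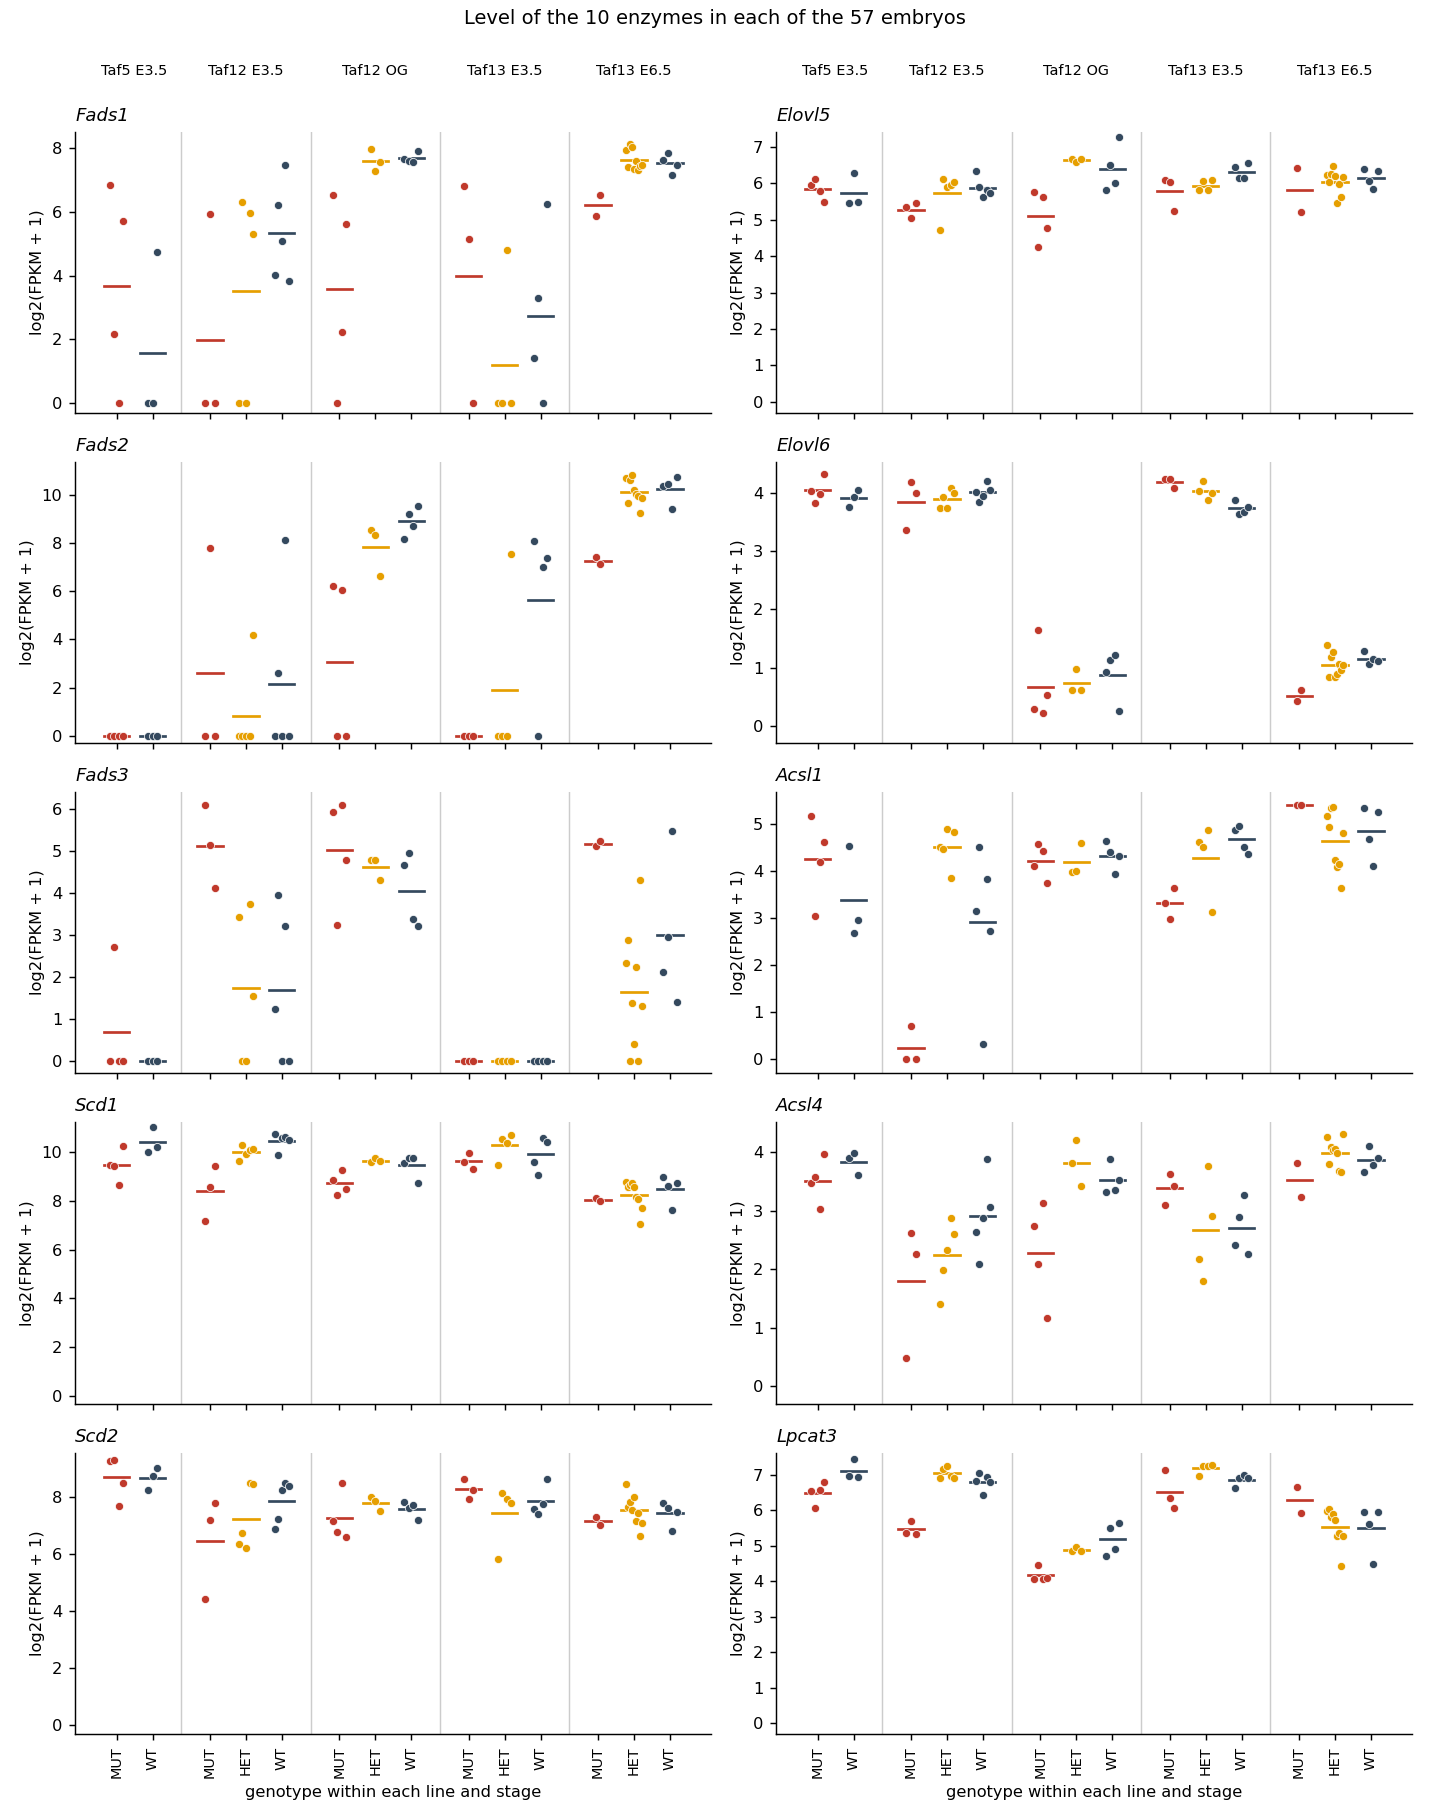
Level of the 10 enzymes in every embryo, as log2(FPKM + 1) on the vertical axes, for MUT, HET and WT of each line and stage. Points are embryos and lines are group means; Fads2 is at 0 in 23 of 31 E3.5 libraries, and Elovl6 is lower in outgrowths and at E6.5 than at E3.5.

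In Taf12 mutant blastocysts, Lpcat3, Scd1 and Elovl5 were below every WT blastocyst, Acsl1 was at or near 0, and Fads3 was above every WT blastocyst. Over all 12751 genes tested in this comparison, 5.19% had every MUT library below every WT library and 4.58% had every one above. Called genes made up 1.44%. These shares are printed as context only, since this contrast chose the genes. Lpcat3 had 40.3, 50.6 and 39.5 FPKM in MUT, against 111, 132, 84.6, 121 and 109.6 FPKM in WT. The means were 43.5 ± 6.19 FPKM in MUT (SD, n = 3) and 112 ± 17.6 FPKM in WT (SD, n = 5), a difference of -1.34 in mean log2(FPKM + 1). The groups did not overlap, and the 3 mutants lay close together.

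Acsl1 had 0, 5 and 0 reads in the 3 Taf12 mutant blastocysts, against 62, 201, 2, 112 and 48 reads in WT. In FPKM these were 0, 0.63 and 0 in MUT, against 7.84, 21.7, 0.257, 13.2 and 5.65 in WT. The WT embryo with 2 reads lay within the range of the mutants, so the groups overlapped. Scd1 had 144, 377 and 680.1 FPKM in MUT, against 935 to 1688 FPKM in WT with a median of 1499. Its mutants spanned a wider range than their distance from the lowest WT embryo. Elovl5 had 39.7, 31.8 and 42.6 FPKM in MUT, against 48.6 to 79.1 FPKM in WT with a median of 55.1.

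Fads2, although among the genes that gave the set its reason, was not lower in Taf12 mutant blastocysts. It had 0, 217 and 0 FPKM in MUT, against 0, 5.17, 0, 277 and 0 FPKM in WT, so that 1 embryo of each genotype carried most of its reads. Fads3 had 68.1, 34.5 and 16.3 FPKM in MUT, from 90, 51 and 24 reads, against 1.36, 14.5, 0, 8.23 and 0 FPKM in WT. Fads1 had 0, 60.03 and 0 FPKM in MUT, against 13.3 to 175 FPKM in WT. Scd2, Elovl6 and Acsl4 overlapped between MUT and WT, with differences in mean log2(FPKM + 1) of -1.39, -0.17 and -1.12. For Scd2 and Acsl4 the lowest mutant, with 20.4 and 0.398 FPKM, was the same embryo, replicate 1, which was also the lowest in Scd1. This library stood apart, with 3.59% of reads from mitochondrially encoded transcripts against 2.17 to 2.59% in WT, and with 11875 genes above 0 against 13762 to 15904 in WT. Without it the differences were -1.46 for Scd1 (-2.07 with it), -0.36 for Scd2, -0.47 for Acsl4 and -1.29 for Lpcat3. The 10 decidual and uterine genes took 0.00538 to 0.0171% of reads in MUT and 0.0049 to 0.01% in WT. Few embryonic markers were called: of the 10 epiblast markers 2 fell and 0 rose, with a median log2 difference of -1.11. They took 0.255 to 0.363% of reads in MUT against 0.328 to 0.5765% in WT, so these shares overlapped. Of 5 visceral endoderm markers tested 1 fell, and of 6 parietal endoderm markers 1 rose. Of 10 trophectoderm and 9 primitive endoderm markers tested, 0 were called. The part of these markers in the enzyme values was not tested.

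In Taf12 mutant outgrowths, Fads1, Fads2, Elovl5, Acsl4 and Lpcat3 were below every WT outgrowth, and Acsl1 was not. Of 13068 genes tested, 18.4% had every MUT library below every WT library and 37.9% were called. Fads2 had 72.5, 0, 65.2 and 0 FPKM in MUT, from 28, 0, 11 and 0 reads, against 283, 579.7, 409.6 and 739.6 FPKM in WT, from 119, 219, 176 and 298 reads. Its means were 34.4 ± 39.9 FPKM in MUT and 503 ± 199 FPKM in WT (SD, n = 4 each). HET outgrowths, with 374, 323 and 98.4 FPKM, lay between or within these ranges.

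Fads1 had 90.9, 0, 3.75 and 48.3 FPKM in MUT outgrowths, against 201, 193, 191 and 239 FPKM in WT. Its WT embryos lay within a narrow range and its mutants were spread below it. Lpcat3 had 15.6, 20.97, 15.8 and 16.1 FPKM in MUT, against 25.4, 43.9, 29.1 and 49.0 FPKM in WT, a difference of -1.02 in mean log2(FPKM + 1). Elovl5 had 53.7, 18.1, 48.6 and 26.1 FPKM in MUT, against 55.8, 89.1, 63.02 and 153 FPKM in WT, so that the highest mutant lay just under the lowest WT outgrowth. Acsl4 had 5.68, 3.24, 7.83 and 1.23 FPKM in MUT, against 9.01, 13.9, 9.22 and 10.5 FPKM in WT.

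Acsl1 had 16.1, 22.9, 20.6 and 12.3 FPKM in MUT outgrowths, against 24.1, 20.1, 14.4 and 18.9 FPKM in WT. These ranges coincided, with means of 17.98 ± 4.69 FPKM in MUT and 19.4 ± 3.99 FPKM in WT (SD, n = 4 each). Of the 3 genes that gave the set its reason, Lpcat3 was thus separated from WT at both stages of the Taf12 line, Fads2 in outgrowths and Acsl1, up to 1 WT embryo, at E3.5. The difference between the stages was not tested. Scd1, Scd2, Fads3 and Elovl6 overlapped between MUT and WT outgrowths. Markers of cell types moved with the genotype here: the 10 trophectoderm markers took 3.09 to 3.95% of reads in MUT and 0.705 to 1.27% in WT, and the 10 visceral endoderm markers 0.000518 to 0.00192% in MUT and 0.0241 to 0.11% in WT, with Apob and Trf at 0 in MUT. Of the trophectoderm markers 5 rose and 1 fell of 10 tested. Trophoblast giant cell markers took 0.733 to 1.85% in MUT and 2.19 to 3.33% in WT. Yet 1 rose and 2 fell of 6 tested, with a median log2 difference of 0.67, so this share did not move as its genes did. Epiblast markers took 0.166 to 0.373% in MUT and 0.0527 to 0.098% in WT, although 1 rose and 2 fell of 6 tested. The decidual and uterine genes took 0.0178 to 0.0245% in MUT and 0.0048 to 0.00832% in WT, although 1 rose and 2 fell of 3 tested, with a median of -1.18. These cultures grew from single blastocysts, so that set was not specific to maternal tissue. The part of all these markers in the enzyme values was not tested. In whole embryos and outgrowths, fewer cells of a type and less RNA per cell cannot be told apart. MUT outgrowth replicate 3 had 4.57 M reads, against 9.51 M or more in the other libraries of this set. Mitochondrially encoded transcripts took 1.45 to 2.16% of reads in MUT outgrowths against 0.95 to 1.33% in WT, with no overlap, and 14640 to 17018 genes were above 0 in MUT against 17443 to 18634 in WT. The part of these measures in the enzyme values was not tested.

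**Figure D2:**
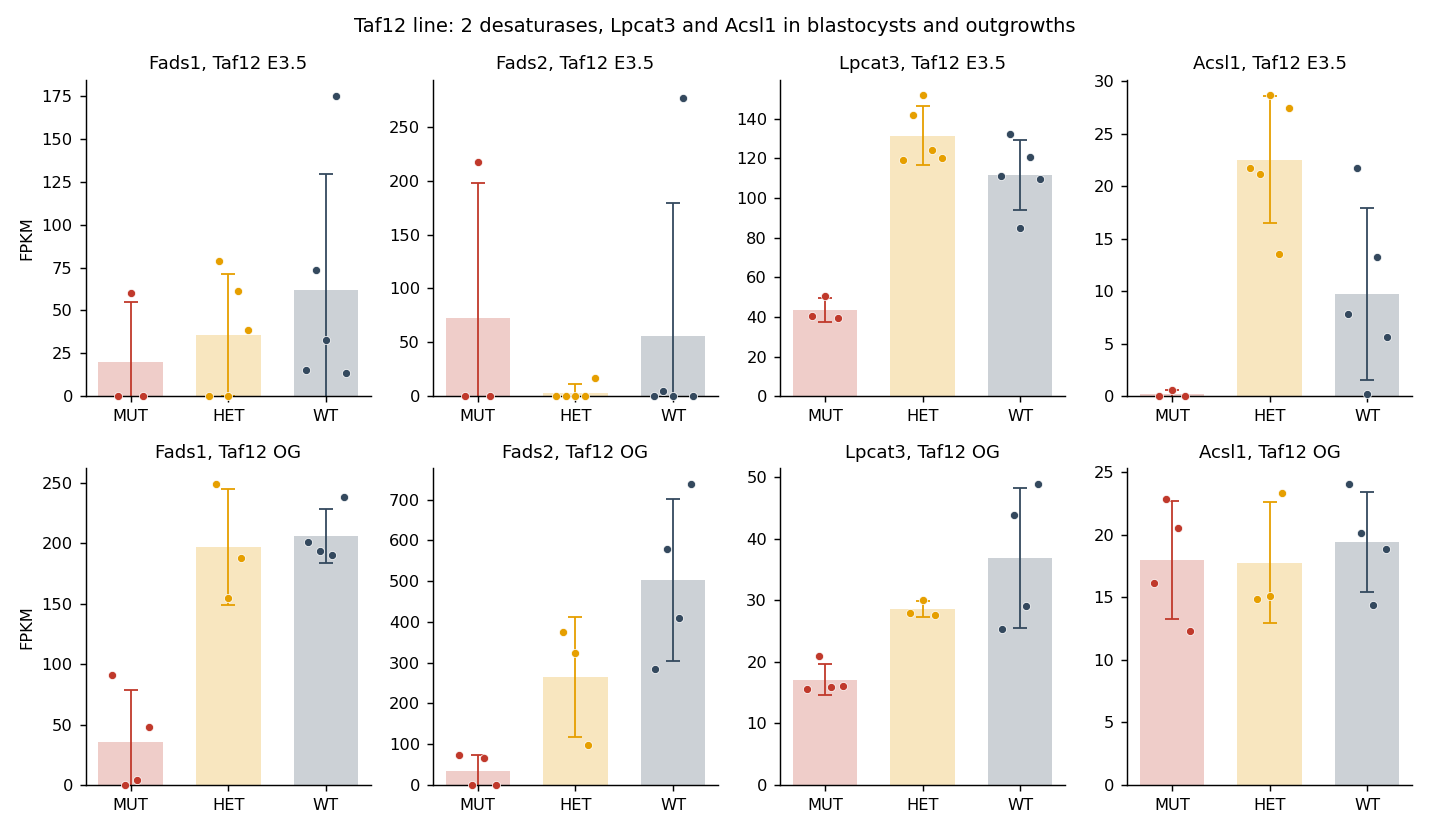
FPKM of Fads1, Fads2, Lpcat3 and Acsl1 in Taf12 MUT, HET and WT embryos at E3.5 (top) and as outgrowths (bottom). Points are embryos, bars are means and error bars are ± SD, cut at 0; Lpcat3 is below WT in all mutants of both rows, Fads2 in the outgrowths, and Acsl1 is at or near 0 in the mutants at E3.5 only of these 2 stages.

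The Taf13 line was not used to choose the genes. At E6.5, 2 of the 10 enzymes passed the test between MUT and WT, and both fell: Fads2 and Fads1, the 2 desaturases of the polyunsaturated pathway. Among all 14417 genes tested, 13.04% were called, 922 of them lower, so 2 of 10 is close to the share of called genes in general. Fads2 had 171 and 137 FPKM in the 2 MUT embryos, from 145 and 115 reads, against 1311, 1404, 674 and 1697 FPKM in WT, from 1051, 1024, 473 and 1406 reads. Its log2 difference was -2.97 (SE 0.41, limma adjusted p = 0.00042), which corresponds to means of 154 ± 23.9 FPKM in MUT (SD, n = 2) and 1272 ± 431 FPKM in WT (SD, n = 4). Both mutants lay far below the lowest WT embryo and below all 9 HET embryos, whose lowest was 610.4 FPKM. The call held under every alternative tried, with log2 differences of -2.80 to -3.25 and adjusted p up to 0.0173.

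Fads1 had 57.4 and 92.3 FPKM in MUT at E6.5, against 199, 231, 142 and 176 FPKM in WT. The log2 difference was -1.32 (SE 0.28, limma adjusted p = 0.00677). Both mutants were below every WT and every HET embryo. The call was lost without MUT replicate 1, where the difference was -0.99 (limma adjusted p = 0.153), and kept without MUT replicate 2, at -1.66 (limma adjusted p = 0.00681). It was also lost with a voom model of the recovered reads (adjusted p = 0.0547) and with a replicate block (-1.33, limma adjusted p = 0.0756).

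The other enzymes did not pass at E6.5. Elovl6 had 0.335 and 0.537 FPKM in MUT, from 156 and 247 reads, against 1.43, 1.08, 1.21 and 1.15 FPKM in WT, from 628, 433, 465 and 523 reads, with a log2 difference of -0.63 (SE 0.22, limma adjusted p = 0.0726). At FPKM this low the added 1 compresses the difference: it was -1.32 with 0.1 added (limma adjusted p = 0.0483), -1.37 in the voom model (adjusted p = 0.0279), and the authors' deposited table, which sets MUT against WT and HET together, gives -1.37 ± 0.28 (standard error). Fads3 had 33.8 and 36.9 FPKM in MUT, against 3.36, 6.76, 44.1 and 1.62 FPKM in WT and 0 to 18.9 FPKM in HET. The WT embryo at 44.1 FPKM, replicate 3, was above both mutants, and the log2 difference of 2.19 had an SE of 1.16 (limma adjusted p = 0.225; 3.02 and 0.0691 without that embryo). It passed only against WT and HET together, at 3.12 (limma adjusted p = 0.0455).

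Acsl1 and Lpcat3 did not pass at E6.5, and their means were higher in MUT. Acsl1 had 41.5 FPKM in both MUT embryos, against 16.2 to 39.5 FPKM in WT, with a log2 difference of 0.56 (limma adjusted p = 0.457). Lpcat3 had 99.5 and 60.1 FPKM in MUT, against 61.04, 47.5, 21.3 and 60.6 FPKM in WT, with a log2 difference of 0.80 (limma adjusted p = 0.262). Scd1, Scd2, Elovl5 and Acsl4 had log2 differences of -0.44, -0.26, -0.33 and -0.34 and overlapped with WT. In all, 3 enzymes had both mutants below every WT embryo (Fads1, Fads2 and Elovl6) and 1 had both above (Acsl1), against 17.7% and 18.8% of all genes tested.

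Cell type markers moved with the genotype at E6.5 as well. The 10 epiblast markers took 0.026 and 0.0341% of reads in MUT, against 0.116 to 0.152% in WT; 7 of the 9 tested fell, and Pou5f1 and Fgf4 had 0 reads in both mutants. The 10 decidual and uterine markers took 0.118 and 0.202% of reads in MUT, against 0.00648, 0.0133, 0.132 and 0.00747% in WT, and 5 of the 9 tested rose. The high WT value was that of replicate 3. Of the WT embryos it had the lowest Fads1, Fads2, Scd1, Scd2, Elovl5, Acsl1 and Lpcat3 and the highest Fads3. HET replicate 8 had the lowest Fads2, Scd1, Scd2, Acsl1, Acsl4 and Lpcat3 and the highest Fads3 of the HET embryos. It had 0.0744% of reads in the decidual and uterine markers, against 0.00296 to 0.0312% in the other HET embryos. Of the primitive endoderm markers, 6 of 10 tested rose. Parietal endoderm markers had 4 up and 0 down of 8 tested, and visceral endoderm markers 2 up and 1 down of 10 tested. The part of these markers in the enzyme values was not tested. Without WT replicate 3, the difference of Fads2 was -3.25 (limma adjusted p = 0.000133) and that of Fads1 was -1.45 (limma adjusted p = 0.00426).

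**Figure D3:**
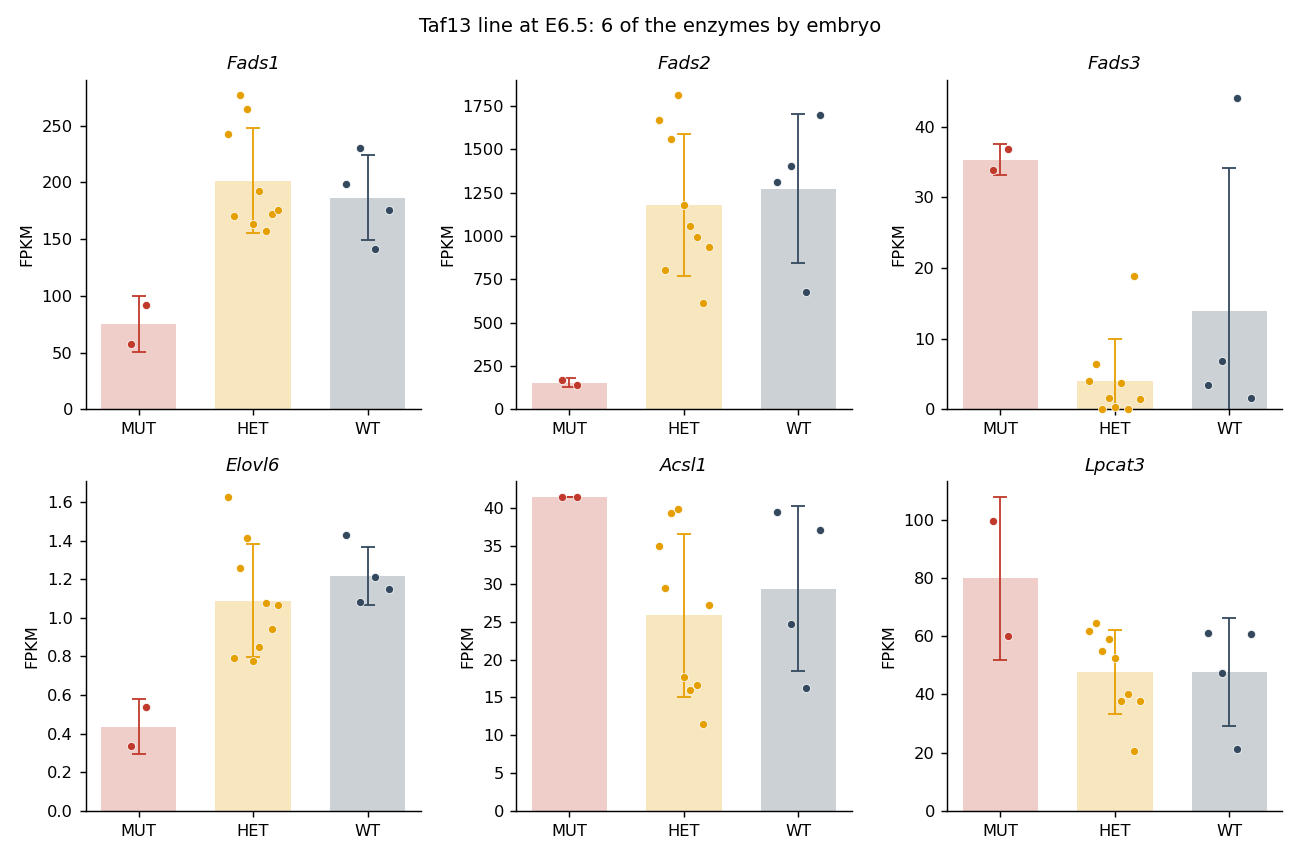
FPKM of 6 of the enzymes in Taf13 MUT, HET and WT embryos at E6.5. Points are embryos, bars are means and error bars are ± SD, cut at 0; Fads2 is at 171 and 137 FPKM in MUT and at 674 FPKM or more in WT, and 1 WT embryo at 44.1 FPKM keeps Fads3 from separating.

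In Taf13 mutant blastocysts none of the 9 enzymes tested passed by limma or the voom model, while 0.134% of 11975 genes were called. Adjusted p ran from 0.383 to 0.876, and 3 had an unadjusted p under 0.05. Acsl1 had 9.04, 6.93 and 11.5 FPKM in MUT, against 28.3, 30.2, 21.8 and 19.7 FPKM in WT, with a log2 difference of -1.36 (SE 0.40, limma adjusted p = 0.383). MUT and WT did not overlap, while HET embryos ran from 7.79 to 28.3 FPKM, so the lowest of them lay within the range of the mutants. The authors' deposited table, against WT and HET together, gives -1.31 ± 0.39 (standard error) with an adjusted p of 0.0256. Elovl5 was also below every WT embryo, with 67.5, 64.5 and 36.6 FPKM in MUT against 69.4 to 92.4 FPKM in WT (limma adjusted p = 0.526). The HET embryos, at 54.9 to 66.9 FPKM of Elovl5, were below every WT embryo too (limma adjusted p = 0.999). Elovl6 was above every WT embryo in MUT, with 17.9, 18.1 and 16.1 FPKM against 11.5 to 13.8 FPKM in WT. Over all genes tested, 4.67% had every mutant below and 3.76% every mutant above.

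Fads2 had 0 reads in all 3 Taf13 mutant blastocysts, against 100, 0, 46 and 58 reads in WT and 0, 0, 0 and 63 in HET. Set at the floor of 3 reads per library, MUT was at least 15.6-fold lower than WT in its share of reads, with the libraries of a group pooled. This bound covers counting error only, and not the spread between embryos. The test did not pass (limma adjusted p = 0.469), and 1 WT and 3 HET embryos were at 0 as well. Lpcat3 overlapped, with 138, 80.2 and 66.3 FPKM in MUT and 98.6 to 127 FPKM in WT. Fads3 had no read in any of the 11 Taf13 blastocysts.

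In Taf5 mutant blastocysts none of the 8 enzymes tested passed by limma or the voom model, while 0.111% of 10843 genes were called, and adjusted p ran from 0.57 to 0.998. Lpcat3 had 93.0, 65.5, 94.2 and 110.4 FPKM in MUT, against 124, 174 and 121 FPKM in WT. All 4 mutants were below all 3 WT embryos, which held for 5.26% of genes tested, with a log2 difference of -0.62 (SE 0.24, limma adjusted p = 0.57, unadjusted p = 0.0363). Scd1 had 707, 693, 398 and 1200.0 FPKM in MUT, against 1034, 2057 and 1171 FPKM in WT, with a log2 difference of -0.96 (SE 0.40, limma adjusted p = 0.591, unadjusted p = 0.0443). Here the groups overlapped. Acsl1 had 34.8, 7.27, 17.3 and 23.5 FPKM in MUT, against 22.05, 5.40 and 6.74 FPKM in WT.

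None of the enzymes passed in HET embryos of any line or stage, by limma or by the voom model. Adjusted p by limma was 0.999 or more throughout, and called genes were 0% of those tested in Taf12 and Taf13 blastocysts and at E6.5, and 0.0306% in outgrowths. A single enzyme had an unadjusted p under 0.05, Acsl1 in Taf12 HET blastocysts, with 21.7, 21.2, 28.7, 13.5 and 27.5 FPKM in HET against 0.257 to 21.7 FPKM in WT (log2 difference 1.60, unadjusted p = 0.0237). HET comparisons share their WT embryos with the MUT comparisons, so this difference and the low Acsl1 of Taf12 mutants are set against the same 5 embryos. By its own values, Acsl1 in the mutants was below all 5 HET embryos.

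**Figure D4:**
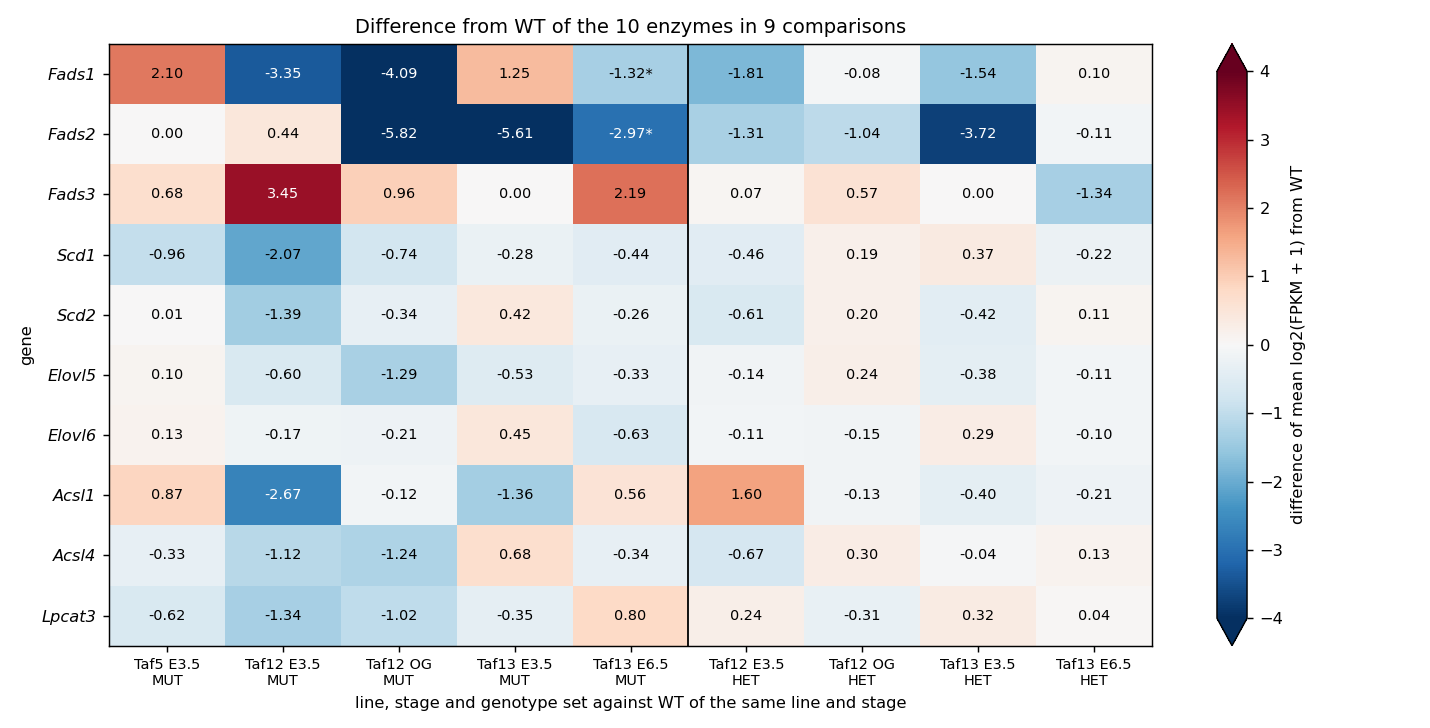
Difference from WT in mean log2(FPKM + 1) for each enzyme (rows) and each MUT or HET group (columns), with colour cut at 4 in either direction. Asterisks mark the tested differences called at an adjusted p under 0.05, Fads1 and Fads2 in Taf13 MUT at E6.5; Taf12 MUT columns carry no test, Fads2 and Fads3 in Taf5 E3.5 and Fads3 in Taf13 E3.5 did not reach the level needed for a test.

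The surrounding lipid pathways were read from 9 lists with 129 genes besides the 10 enzymes, described by their counts. In Taf12 mutant blastocysts 2 of 106 tested list genes passed (1.89%): Agpat2, which makes phosphatidic acid, rose to 105 ± 11.6 FPKM in MUT against 47.5 ± 9.23 FPKM in WT, and Mboat7, which re-esterifies lysophosphatidylinositol, fell to 103 ± 34.1 FPKM in MUT against 215 ± 29.98 FPKM in WT (SD, n = 3 and 5; limma adjusted p = 0.0291 and 0.0463). Leaving out single embryos left 0 to 2 of these calls, with 0 without WT replicate 2, WT replicate 5 or MUT replicate 1.

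In Taf12 mutant outgrowths 42 of 106 list genes passed (39.6%), 28 higher and 14 lower. This is close to the share over all genes tested, 37.9%, of which 17.98% were higher and 19.95% lower. The called share was no higher than over all genes in elongation, lipid peroxide defence and oxidation, and phospholipases A2. Nor was it higher in the SREBP, LXR and PPAR regulators or in other acyl-CoA synthetases and transport proteins. De novo synthesis had 1 gene up and 3 down of 9 tested. Fasn, the fatty acid synthase, fell to 16.4 ± 6.44 FPKM in MUT against 89.5 ± 13.6 FPKM in WT (limma adjusted p = 7.78e-05), Me1, a source of NADPH, fell as well, and Mlycd, which degrades malonyl-CoA, rose to 125 ± 17.1 FPKM in MUT against 39.5 ± 14.7 FPKM in WT. Elongation had 0 up and 3 down of 8 tested, among them Hsd17b12 and Tecr, which complete each elongation round. Of the SREBP, LXR and PPAR regulators, 2 rose and 2 fell of 15 tested. Srebf2, the SREBP of sterol synthesis, fell to 39.96 ± 12.97 FPKM in MUT against 191 ± 58.7 FPKM in WT (limma adjusted p = 0.000182), Srebf1 fell by 1.06 on the log2 scale, and Insig1, which retains SREBPs in the endoplasmic reticulum, rose by 1.30.

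Uptake and beta-oxidation had 11 genes up and 0 down of 21 tested in Taf12 mutant outgrowths, with a median log2 difference of 0.67 over the list and of -0.05 over all genes tested. Acaa2, the last enzyme of the mitochondrial cycle, rose to 967 ± 96.6 FPKM in MUT against 376 ± 36.3 FPKM in WT (limma adjusted p = 1.73e-05), and Eci1 and Etfb followed at log2 differences of 1.44 and 1.10. The list of lipid peroxide defence and oxidation had 3 up and 0 down of 8. Gch1, the entry enzyme of tetrahydrobiopterin synthesis, was at 7609 ± 2503 FPKM in MUT against 903 ± 303 FPKM in WT. Gpx4, which reduces lipid hydroperoxides, was at 1274 ± 376 FPKM in MUT against 498 ± 91.7 FPKM in WT. Phospholipases A2 had 3 up and 0 down of 10, led by Pla2g15 of lysosomes at a log2 difference of 3.27. The other acyltransferases were split, 5 up and 4 down of 18, with Agpat5, Agpat3 and Agpat4 among those that fell. Other desaturases and their electron donors had 3 up and 1 down of 8, and other acyl-CoA synthetases and transport proteins 1 up and 1 down of 10. The trophectoderm and visceral endoderm markers and the mitochondrial share given above moved with these lists too.

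At E6.5 in Taf13 mutants, 23 of 114 list genes passed (20.2%), 18 higher and 5 lower, against 13.04% of all genes tested, 6.645% higher and 6.395% lower. Beta-oxidation and uptake, the longest list, again held the most calls, 8 up and 1 down of 21 tested. The median log2 difference was 0.89 over this list and 0.03 over all genes tested. Acaa2 rose to 3339 ± 162 FPKM in MUT against 1434 ± 165 FPKM in WT (SD, n = 2 and 4; limma adjusted p = 0.000138), and Etfdh and Hadh rose by 1.32 and 1.13 on the log2 scale. The gene that fell was Fabp5, a fatty acid binding protein. Elongation had 0 up and 2 down of 11: Elovl4, of very long chains, fell to 0.0102 ± 0.0144 FPKM in MUT against 4.33 ± 1.00 FPKM in WT (limma adjusted p = 3.22e-05), and Elovl2, which extends polyunsaturated chains, fell to 1.32 ± 0.903 FPKM in MUT against 5.49 ± 1.55 FPKM in WT (limma adjusted p = 0.0176).

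Of the other desaturases and their electron donors, 1 rose and 0 fell of 8 tested at E6.5. It was Cyb5r3, a cytochrome b5 reductase, which rose to 221 ± 0.917 FPKM in MUT against 89.97 ± 8.55 FPKM in WT (limma adjusted p = 0.0046). De novo synthesis had Mlycd and Me1 up and Acacb, the mitochondrial acetyl-CoA carboxylase, down of 10. Regulators had 2 up and 0 down of 17, Mlxipl, a carbohydrate-responsive factor, at a log2 difference of 2.64 and Med15, a Mediator subunit that SREBPs bind, at 1.32. The list of lipid peroxide defence and oxidation had Gch1, Ptges and Alox5 up and 0 down of 10. Slc27a1 was the transport protein that rose, and Agpat4 rose and Gpat3 fell among 17 other acyltransferases. Alox5 and Gpat3 overlapped between MUT and WT. Gpat3 was at 86.1 ± 113 FPKM in MUT against 179 ± 17.55 FPKM in WT (SD, n = 2 and 4). Alox5 was at 12.2 ± 2.58 FPKM in MUT against 3.31 ± 6.6 FPKM in WT. Of 10 phospholipases A2 none passed. The epiblast, decidual and primitive endoderm markers given above moved with these lists, and their part was not tested. These E6.5 counts rest on MUT replicate 1: without it 4 list genes passed, 1 of them in uptake and beta-oxidation, while without MUT replicate 2 the counts were 20 and 6. Calls over all genes likewise numbered 404 without MUT replicate 1 and 1858 without MUT replicate 2. Mitochondrially encoded transcripts took 1.12% of reads in MUT replicate 1 and 0.38% in MUT replicate 2, against 0.11 to 0.53% in WT, and the part of this share in the counts was not tested. With a replicate block 8 list genes passed, 1 of them in uptake and beta-oxidation. No list gene passed by limma or the voom model in Taf5 or Taf13 mutant blastocysts or in any HET group, where 6, 15 and at most 3 had an unadjusted p under 0.05.

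**Figure D5:**
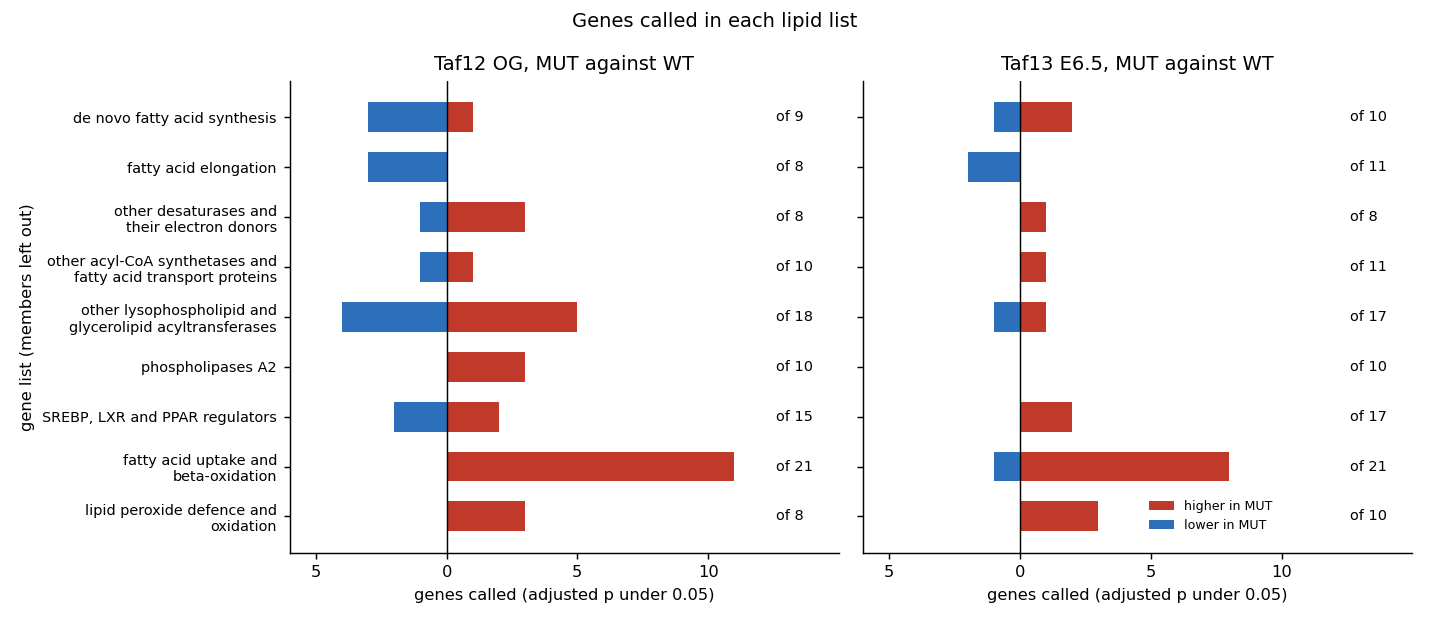
Number of genes called in each lipid list (rows) in Taf12 MUT outgrowths and Taf13 MUT embryos at E6.5, each against WT, with higher genes to the right of 0 and lower genes to the left. The number tested stands at the right; uptake and beta-oxidation has 11 and 8 genes higher.

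Genes whose levels ran most like those of the 3 genes that gave the set its reason were taken from 8932 or 8933 genes tested at every line and stage, by Pearson's r of log2(FPKM + 1) over the 57 libraries after subtracting the mean of each line and stage. The libraries share genotype and depth, so r is a description. They also include the Taf12 mutants on which the enzymes were chosen, so likeness among Fads2, Lpcat3 and Acsl1 is not independent of that choice. For Lpcat3 they were Ppp2r1a (0.81), Rps6ka1 (0.80), Cs (0.79), Sdha (0.79) and Usp5 (0.78). For Acsl1 they were Rbfaos (0.73), Ephx2 (0.71), Aldh18a1 (0.71), Creb3l2 (0.67) and Thumpd2 (0.67). For Fads2, at 0 in 25 libraries, they were Tomm40 (0.64), Qrsl1 (0.63), Aen (0.62), Ppan (0.60) and Tmem97 (0.59). Among the enzymes themselves, r with Lpcat3 was 0.64 for Scd1 and 0.60 for Acsl1, r with Fads2 was 0.49 for Elovl5 and 0.33 for Fads1, and r of Fads2 with Acsl1 was 0.03. For Fads3 and Lpcat3, r was -0.41.

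As a check of the labels, no Taf5 MUT library had a read of Taf5, against 13.2 to 51.9 FPKM in WT. The Taf12 transcript was at 56.3 to 67.5 FPKM in MUT against 36.2 to 51.3 FPKM in WT at E3.5 and at 51.8 to 53.7 against 18.6 to 27.02 in outgrowths, and Taf13 overlapped between MUT and WT at both stages, so transcript levels do not check those labels. Scd1 and Scd2 resemble each other and Scd3 and Scd4, and Lpcat3 overlaps Emg1 on the other strand, Acsl1 overlaps Gm45244 and Elovl6 overlaps Gm35986. How reads were assigned between such genes is not given in the sources used here, so levels of these enzymes carry that uncertainty.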

How the data were processed

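RNA of single embryos was amplified and sequenced as 76 bp read pairs, per the labels' protocols. The submitters' processing notes name the build GRCm39 and the tools STAR 2.7.6a, DESeq2 1.36.0, R 4.2.1, FastQC 0.11.9 and Trimmomatic 0.39; which program counted reads, and whether by strand, is not given in the sources used here. FPKM deposited by the authors cover each gene and embryo, and each of the 5 line and stage sets was scaled on its own. The authors' second deposited table sets Taf12 and Taf13 MUT against WT plus HET, and Taf5 MUT against WT alone, and holds a mean normalized count (treated here as a score), a log2 fold change, its standard error and an adjusted p-value.

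Groups come from the sample titles. Dividing each FPKM by the FPKM of 1 read gave read numbers, of which, up to 500 reads, at least 99.79% per library were whole within 0.05 reads. Intervals and floors cover counting error only. The test was limma (3.58.1, under R 4.3.3) on log2(FPKM + 1), with a mean-variance trend, robust moderation and 1 fit for all genotypes of a line and stage. A gene entered if its FPKM reached 1 in a number of libraries equal to the size of the smallest group. Fold changes on this scale understate changes of low genes. Calls are two-sided at a Benjamini-Hochberg adjusted p under 0.05 over all genes tested. A voom model of the recovered reads called 0 genes in Taf5 MUT, 186 in Taf12 MUT blastocysts, 5077 in Taf12 MUT outgrowths, 1 in Taf13 MUT blastocysts and 2347 in Taf13 MUT at E6.5. The other alternatives were a pseudocount of 0.1, no filter, total scaling, WT and HET pooled as control, a replicate block, and leaving out each embryo. The fit was tested on simulated data. Drawings used matplotlib 3.10.9.

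The 10 enzymes and all gene and marker lists were chosen with earlier results of these data known. The text names the 10 enzymes and up to 3 called genes per list and comparison, by smallest p; Fabp5 at E6.5 was named after its value was seen. Cyb5r1 stands on 2 lists.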

Additional observations from a re-analysis of the deposited data

Results flagged for a closer look

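An enzyme varied in 87 groups of 4 to 10 embryos. Of these groups, 11 held an embryo far from the others on the log2(FPKM + 1) scale by Dixon's criterion at 95%. Its rate of about 1 in 20 by chance holds for normally distributed values. A group with all embryos but 1 at 0 always meets the criterion, so 11 of 87 cannot be set against that rate. Of the 11, 5 involve a desaturase with reads in few blastocysts. Fads1 was at 27.2 FPKM in 1 Taf13 HET blastocyst and at 0 in the other 3. Fads2 was at 17.1 FPKM in 1 Taf12 HET blastocyst, at 186 in 1 Taf13 HET blastocyst and at 0 in the rest of those groups. In Taf13 WT blastocysts it was the reverse, with 0 FPKM in replicate 2 and 129 to 268 in the others. Fads3 was at 5.57 FPKM in 1 Taf5 MUT blastocyst and at 0 in the other 3.

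The remaining 6 were single low or high embryos of steadily detected genes. Scd1 was low in Taf12 WT blastocyst 2, at 935 FPKM against 1438 to 1688 in the others. Scd2 was low in Taf13 HET blastocyst 1, at 56.2 FPKM against 224 to 283, and the same embryo had the low Lpcat3 of its group, at 123 FPKM against 151 to 155. Elovl5 was low in Taf12 HET blastocyst 1, at 25.3 FPKM against 58.8 to 67.8. Lpcat3 was high in Taf12 MUT outgrowth 2, at 21 FPKM against 15.6 to 16.1, and low in Taf13 HET embryo 8 at E6.5, at 20.5 FPKM against 37.8 to 64.6.

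The other results are 2 enzymes whose Taf13 mutants lay wholly on opposite sides of WT at the 2 stages. Acsl1 was above WT at E6.5 (log2 difference 0.56) and below WT at E3.5 (-1.36), 1.92 apart. Elovl6 was above WT at E3.5 (0.45) and below WT at E6.5 (-0.63), 1.08 apart. The difference between the stages was not tested.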

How the results depend on the processing

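Alternatives for the list counts of Taf13 MUT at E6.5 and for the uptake and beta-oxidation counts were chosen after seeing the data. No enzyme was called under any alternative in Taf5 or Taf13 MUT blastocysts or in any HET comparison. In Taf13 MUT at E6.5, 2 were called, against 4 with WT and HET pooled, 1 with a replicate block, and 1 to 2 with an embryo left out (1 without MUT replicate 1). Fads1 there differed by -1.33 with the block (limma adjusted p = 0.0756). The difference of Elovl5 ran from -0.94 without MUT replicate 1 to 0.28 without MUT replicate 2, against -0.33 with both; the cause was not tested. List genes called at E6.5 numbered 35 with voom, 40 with the pooled control, 8 with the replicate block and 4 to 23 with an embryo left out, against 23. Uptake and beta-oxidation genes numbered 14 with voom, 1 with the block and 1 to 10 with an embryo left out, against 9. In Taf12 MUT blastocysts 2 list genes were called, against 0 with no filter, 6 with the pooled control, 1 with the replicate block and 0 to 2 with an embryo left out. In Taf12 MUT outgrowths 42 list genes became 38 to 53, and 11 uptake and beta-oxidation genes became 18 with the pooled control and 11 to 13 with an embryo left out. Acsl1 in Taf12 MUT blastocysts differed by -4.81 with a pseudocount of 0.1 and by -2.67 with 1. Of 50 other differences of the enzymes, 18 changed sign under at least 1 alternative and 0 were called.

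Over all genes, calls in Taf5 MUT numbered 12, against 0 with voom, 0 with the block and 4 with no filter. In Taf12 MUT blastocysts they numbered 184, against 67 with no filter, 48 with the block and 441 with the pooled control. In Taf13 MUT blastocysts they numbered 16, against 1 with voom, 0 with the block, 8 with no filter and 30 with the pooled control. In Taf13 MUT at E6.5 they numbered 1880, against 584 with the block, 3348 with the pooled control, 404 without MUT replicate 1 and 1238 without WT replicate 2. In Taf12 HET outgrowths they numbered 4, against 0 with voom and 0 with the block. Total scaling moved the median of all genes by 0.11 (log2) at E6.5, where Fads2 then differed by -2.83 (limma adjusted p = 0.00209). Replicate numbers showed no consistent pairing of embryos. Same-numbered embryos deviated together by r of -0.44 to 0.38, and in no pair of groups was every r over 0.1. This r cannot decide whether embryos shared a litter, since HET and WT pairs of unlike number at E6.5 ran from -0.47 to 0.6. At E3.5, Fads1, Fads2 and Fads3 had no read in 12, 23 and 21 of 31 libraries, which limits what could be detected there.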
